A study of Macaca mulatta with 27 samples.

Results

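The genes described are the glycosyltransferases that build the glycans of the cell surface and the extracellular matrix. They were taken by symbol, as every gene whose name places it among the B3GALT, B3GNT, B4GALT, B4GALNT, ST3GAL, ST6GAL (ST6GALNAC included), ST8SIA, FUT, GCNT, GALNT, or MGAT enzymes, together with A4GALT. This gave 83 of the 17967 gene symbols in the count tables. The rule used symbols and no measured value, though it was set with earlier results of these data known. Sorted by the role of their families, 16 start O-GalNAc glycans, 9 build or cap mucin cores, 10 are of families that act on N-glycan branches or their core, 13 act on N-acetyllactosamine chains, 14 on glycolipids, and 7 are fucosyltransferases. A family member was not checked for activity of its own. A further 6 add α2,3-linked sialic acid, 2 add α2,6-linked sialic acid to galactose, 2 make polysialic acid, 3 act on LacdiNAc or Sda structures, and 2 on the linker of proteoglycans. ST3GAL1, ST3GAL2, and ST3GAL5 stand in 2 of these classes, and B3GNT9 and ST8SIA6 in none. FUT2, FUT3, and FUT6 were not analysed here.

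The libraries were bulk mRNA sequencing of rhesus macaque pluripotent stem cells (PSCs) in the primed state and after reprogramming with each of 7 naive-state protocols, named LCDM (EPS), NHSM-v, t2iLGöY, 4i/L/b, TL2i, E-NHSM, and TL-CDK8i, the last being the TL-CDK8/19i of the study. All were LyonES-tGFP-(S3) cells, 1 clone of embryonic stem cells that carries a tauGFP transgene under the CAG promoter and STAT3-ERT2, a STAT3 that tamoxifen activates, so the primed controls carried both transgenes as well. Tamoxifen was part of TL2i, with LIF and inhibitors of MEK and GSK3β, and of TL-CDK8i, in which the CDK8/19 inhibitor CNIO-47799 took the place of these inhibitors. The other 5 protocols ran without tamoxifen, and the labels give them by name only. Primed cells were passaged mechanically in clumps and reprogrammed cells by enzyme as single cells, so protocol and passaging cannot be told apart. There were 6 primed libraries, in columns lettered J and K with 3 each, and 3 libraries of each protocol. The sample titles name more than 1 primed set, but the lettered columns could not be matched to these titles. All 6 were used as 1 primed group without a block. The same 6 primed libraries served every comparison of a protocol with primed cells, so these comparisons are not independent of each other.

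Surface glycans are made stepwise in the endoplasmic reticulum and Golgi apparatus, where each transferase adds 1 kind of sugar from a nucleotide sugar donor to a growing chain on a protein or lipid. Enzymes that use the same acceptor compete, as ST3GAL1 and GCNT1 do for the core 1 O-glycan, so the set of transferases a cell makes helps to set which structures it displays. Pluripotent cells are commonly recognised by such structures, among them the globo-series glycolipids SSEA-3 and SSEA-4 and the TRA-1-60 and TRA-1-81 epitopes on podocalyxin, and neural cells by polysialic acid on the adhesion molecule NCAM1. Only mRNA was measured here, neither the enzymes nor the glycans.

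Total counts ranged from 7111886 to 20760914 per library, with a median of 12201171, and the members together took from 0.216% to 0.398% of them. Levels are given as CPM, library-size-scaled counts after TMM normalization over all 27 libraries, which are not divided by transcript length, so a level is compared only with other levels of the same gene. A count of 3 corresponded to 0.144 to 0.422 CPM, depending on the library. Replicates of every group differed by more than sampling noise (chi-square per gene from 3.74 to 28.0), and nothing in the labels tells whether they were separate cultures, so the p-values measure the spread between these libraries, which may be technical. Within the primed group, chi-square per gene was 18.1 to 28.0 for pairs across J and K and 8.84 to 16.2 for pairs within a letter. Of the 77 members over 3 counts in a primed library, 20 did not overlap between the J and K libraries, 12 of them higher in K. This stood beside 20.4% without overlap among the 14833 genes over 3 counts in a primed library. Primed J3 was the shallowest library of all. The summed level of 10 pluripotency markers was 6248 to 7117 CPM in primed and 7278 to 7346 CPM in E-NHSM, 1947 to 2663 CPM in TL-CDK8i, and from 131.9 to 630.9 CPM in the other 5 protocols. All 10 were called lower in NHSM-v, t2iLGöY, TL2i, 4i/L/b, and TL-CDK8i, and all but SOX2 in LCDM (EPS). POU5F1, at 1104 to 1296 CPM in primed, was between 0.0723 and 7.7 CPM in these protocols other than TL-CDK8i, and NANOG at most 0.539 CPM, so the label of pluripotent cells was not borne out by these genes in those 5. In bulk libraries, fewer cells of a type and less RNA per cell cannot be told apart.

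Of the 83 transferases, 68 to 73 were tested in each protocol, and between 20 and 48 were called higher or lower than in primed cells. Of all genes tested, 11.1% to 28.2% were called higher and 15.1% to 30.6% lower, depending on the protocol. LCDM (EPS), NHSM-v, t2iLGöY, TL2i, and 4i/L/b are here called the 5 protocols. Of the 68 transferases tested in all of the 5, 10 rose and 7 fell in common. This stood beside 10.8% and 14% of all genes. Both polysialyltransferases, the α2,3-sialyltransferase ST3GAL1, and the N-glycan branching enzymes MGAT4A and MGAT5 were among those that rose. One polysialyltransferase, ST8SIA4, had no primed count and could be called only higher. The core 2 enzyme GCNT1, the I-branching enzyme GCNT2, the chain-extending enzyme B3GNT7, the fucosyltransferase FUT1, and the α2,6-sialyltransferase ST6GAL1 were among those that fell. A gene is called higher or lower where the Benjamini-Hochberg adjusted p of edgeR's quasi-likelihood test, over all genes tested in that comparison, was under 0.05. Log2 fold changes are given ± SE, with 3 libraries of a protocol against 6 primed ones.

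In E-NHSM, 68 members passed the filter on low counts, 10 were higher, and 10 were lower, against 11.1% of all genes tested called higher and 15.1% lower. In NHSM-v, 70 were tested, 30 were higher, and 12 lower (28% and 30.6% of all genes). In 4i/L/b, 69 were tested, with 27 higher and 13 lower (26.6% and 29% of all genes). In TL2i, 72 were tested, with 23 higher and 13 lower (25.6% and 25.2%). For t2iLGöY, 26 of the 71 tested were higher and 14 lower (27.1% and 27.2%). For LCDM (EPS), 26 of 73 were higher and 22 lower (28.2% and 28.9%). For TL-CDK8i, 21 of 70 were higher and 9 lower (22.3% and 23.8%). As a share of members tested, the calls higher came to 42.9% in NHSM-v and 39.1% in 4i/L/b, above the share of all genes, while the calls lower came to 17.1% and 18.8%, under it. E-NHSM stood at 14.7% in each direction and LCDM (EPS) at 35.6% higher and 30.1% lower. The median log2 fold change of the members tested was 0.058 in E-NHSM and between 0.296 and 0.442 in the other 6 protocols, where that of all genes tested lay between -0.023 and 0.069. These shares are a description of the members and were not tested as a set. The counts by class and by marker list below are likewise descriptions, to be read beside the same shares of all genes.

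**Figure D1:**
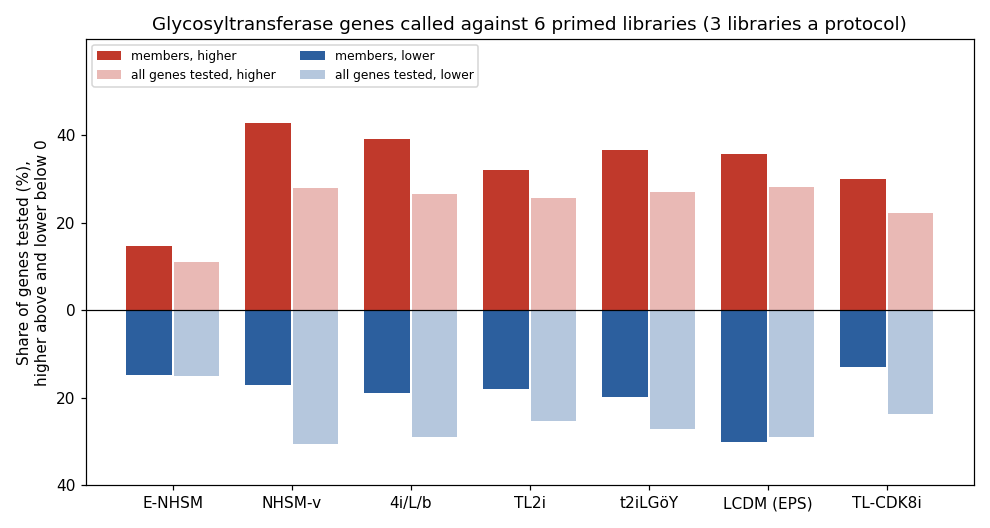
Share of genes called higher or lower than primed in each protocol (percent of genes tested, y axis), for the member glycosyltransferases and for all genes. The members' bars for higher calls exceed those of all genes in all 7 protocols, by most in NHSM-v (42.9% against 28%), and their bars for lower calls are under those of all genes in 6, LCDM (EPS) being the exception (30.1% against 28.9%).

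The summed level of all 83 members was 2326 ± 81.3 CPM in primed (mean ± SD, n = 6) and 2293 ± 32.1 in E-NHSM (n = 3). It was 4164 ± 96.5 CPM in NHSM-v, 3397 ± 48.3 in 4i/L/b, 2586 ± 13.6 in TL2i, 3325 ± 146 in t2iLGöY, 2350 ± 24.5 in LCDM (EPS), and 2835 ± 80.8 in TL-CDK8i (n = 3 each). Among 67 members tested in all 7 comparisons, MGAT5 was the 1 called higher in every protocol, as were 0.785% of all genes, and B3GNT7 the 1 called lower in every protocol, as were 2.79%. Higher in all of the 5 protocols were FUT11, FUT8, GALNT2, MGAT4A, MGAT5, ST3GAL1, ST6GAL2, ST6GALNAC5, ST8SIA2, and ST8SIA4, 10 of the 68 members tested in all 5, beside 10.8% of all genes. Lower in all of the 5 protocols were B3GNT7, FUT1, GCNT1, GCNT2, MGAT4C, ST6GAL1, and ST8SIA3, 7 of the 68, beside 14% of all genes. Of the 76 members tested in any protocol, 20 were called higher in at least 1 and lower in at least 1 other, beside 21.8% of all genes. The protocols differed among themselves in 74 of the 79 members tested, beside 90.9% of all genes. Of the 256 calls against primed, 199 remained whichever single library was left out, and 34 were lost when the J libraries were the only primed ones. Calls lost without 1 library, in DESeq2, or with another scaling, filter, fit, or set of primed libraries are named with the genes. Of the 256 calls, 78 rest on a log2 fold change under 1 in size, those of MGAT5 in E-NHSM and TL2i among them.

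**Figure D2:**
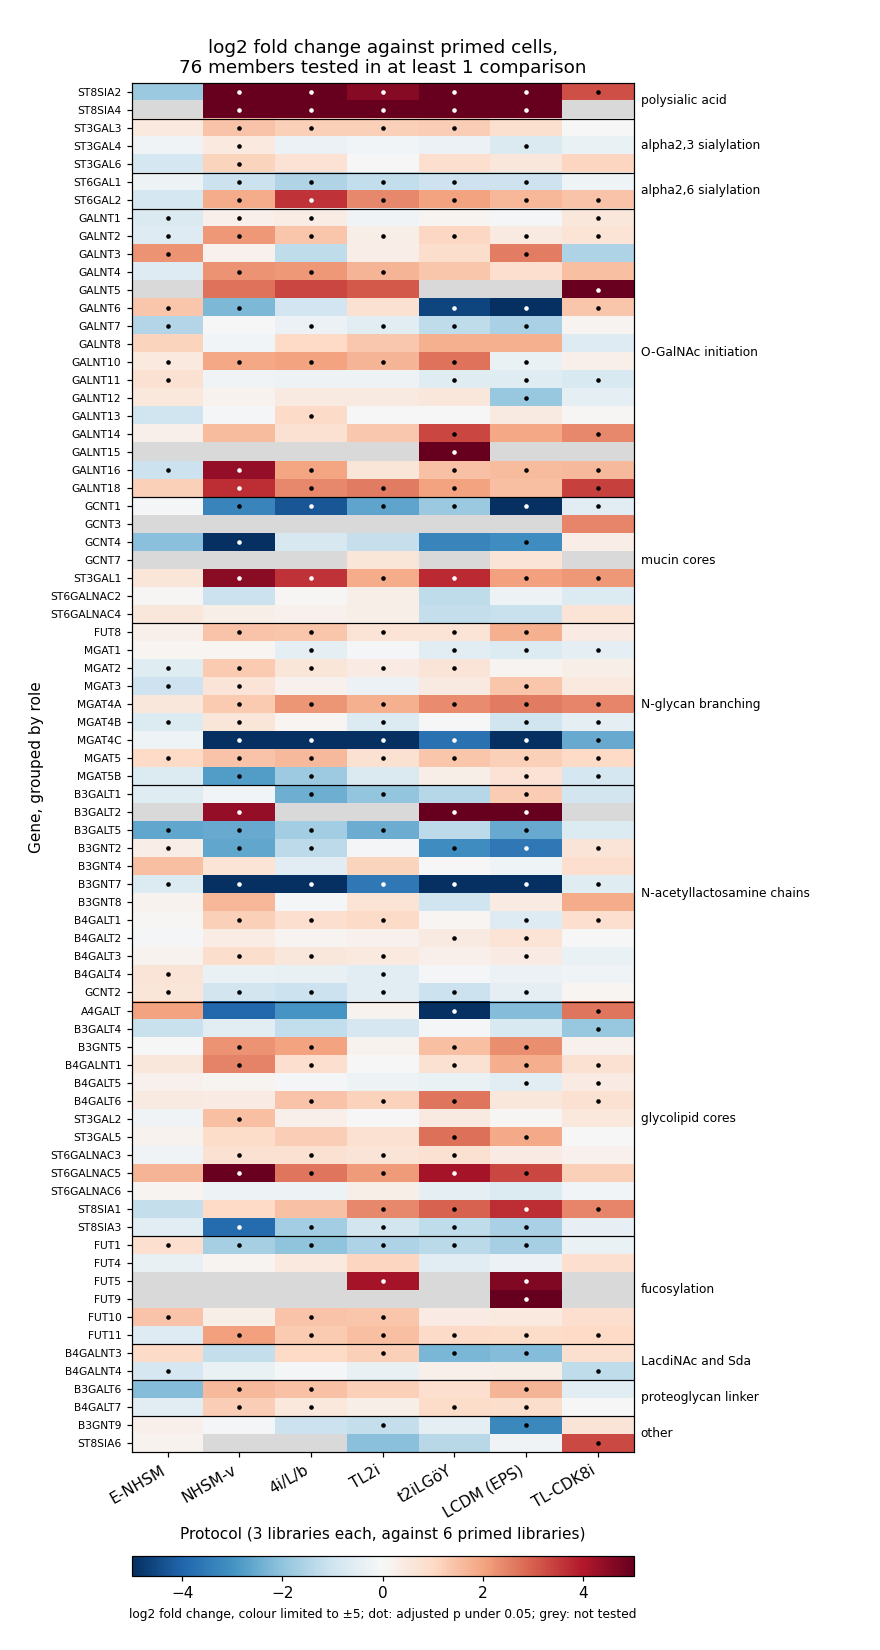
Log2 fold change against primed of the 76 members tested in at least 1 protocol (y axis, by class) in the 7 protocols (x axis). Colour runs from -5 to 5, a dot marks an adjusted p under 0.05, and grey marks a gene not tested; the column of E-NHSM holds 20 dots and that of LCDM (EPS) 48.

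The polysialyltransferases ST8SIA2 and ST8SIA4, which extend long chains of sialic acid, mostly on NCAM1, were both called higher in the 5 protocols. ST8SIA2 was also called higher in TL-CDK8i, where ST8SIA4 was not tested. ST8SIA2 was at 0, 0.845, and 4.57 CPM in the primed libraries (lowest, median, and highest) and at 0, 1.22, and 0 CPM in E-NHSM. It reached 149.6, 158, and 160.5 CPM in LCDM (EPS), 135, 125, and 127 CPM in NHSM-v, and 103, 114, and 108 CPM in t2iLGöY. Lower levels were found in 4i/L/b (51, 63.8, and 62.8 CPM), TL2i (33, 32.3, and 31.3 CPM), and TL-CDK8i (15, 14.6, and 12.6 CPM). Every library of these 6 protocols lay above every primed and E-NHSM library, and these 6 protocols did not overlap each other in the order LCDM (EPS), NHSM-v, t2iLGöY, 4i/L/b, TL2i, TL-CDK8i. The increase was called in all 6, from TL-CDK8i (log2 fold change 3.22 ± 0.88, adjusted p = 0.00766) to LCDM (EPS) (log2 fold change 6.93 ± 0.55, adjusted p = 1.18e-07), and not in E-NHSM (log2 fold change -1.87 ± 1.75, adjusted p = 0.481). ST8SIA4 had no count in any primed library, so it could pass the filter only through a protocol and be called only higher. It was at 15.4, 10.6, and 19.7 CPM in LCDM (EPS), 4.57, 6.61, and 7.8 CPM in t2iLGöY, 4.52, 5.47, and 3.27 CPM in 4i/L/b, 2.93, 6.07, and 1.76 CPM in NHSM-v, and 1.86, 1.46, and 1.63 CPM in TL2i. Against a primed level of 3 counts per library, this was at least 50.3-fold higher in LCDM (EPS), 20.9-fold in t2iLGöY, 11.8-fold in NHSM-v, 14.6-fold in 4i/L/b, and 5.44-fold in TL2i, with adjusted p from 3.97e-06 to 0.00215. In TL-CDK8i (0.803, 3.23, and 0.677 CPM) and E-NHSM (0, 0, and 0.484 CPM) it did not pass the filter. The mean in TL-CDK8i was at least 5.19-fold higher by the same bound, near the 5.44-fold of TL2i.

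NCAM1, the main carrier of polysialic acid, was at 88.5, 103, and 119 CPM in primed cells. It was at 798, 724, and 792 CPM in NHSM-v, 563, 639, and 595 CPM in t2iLGöY, 583, 603, and 585 CPM in LCDM (EPS), and 286, 311, and 311 CPM in 4i/L/b. These 4 groups lay wholly above the primed libraries, TL-CDK8i (124, 131, and 123 CPM) just above them, and E-NHSM (29.2, 31.1, and 18.1 CPM) wholly under them. The rise was 7.35-fold in NHSM-v (log2 fold change 2.88 ± 0.0913, adjusted p = 2.02e-12) and 2.85-fold in 4i/L/b (log2 fold change 1.51 ± 0.0953, adjusted p = 1.82e-08), and NCAM1 fell in E-NHSM (log2 fold change -1.99 ± 0.17, adjusted p = 9.91e-08). In TL2i (113, 128, and 113 CPM; log2 fold change 0.19 ± 0.11, adjusted p = 0.159) and TL-CDK8i (log2 fold change 0.23 ± 0.11, adjusted p = 0.0961) it was not called. CHST10, which sulfates the HNK-1 epitope of neural adhesion molecules, was called higher in the 5 protocols and TL-CDK8i, from 20.4 ± 3.66 CPM in TL-CDK8i to 66.9 ± 15.2 CPM in NHSM-v (mean ± SD, n = 3), and was at 7.04 ± 1.77 CPM in primed cells (n = 6). Of 9 neural markers, 9 were called higher in LCDM (EPS), 8 in each of NHSM-v and t2iLGöY, 6 in each of TL2i and 4i/L/b, 4 in TL-CDK8i (DCX, TUBB3, STMN2, and POU3F2), and 1, DCX, in E-NHSM. The share of all genes called higher was 28.2% in LCDM (EPS), 22.3% in TL-CDK8i, and 11.1% in E-NHSM. NES, which is high in primed cells too, made up at least 94.7% of their summed level there. Without NES, the sum was 67.15 to 124.1 CPM in primed and 100.4 to 118 in E-NHSM. It was 3581 to 3972 CPM in LCDM (EPS), 2214 to 2397 in t2iLGöY, 1117 to 1166 in NHSM-v, 661.7 to 749.9 in 4i/L/b, 535.5 to 576 in TL2i, and 210.7 to 277.4 in TL-CDK8i. With NES, it was 2342 to 2662 CPM in primed, 1313 to 1465 in E-NHSM, 2105 to 2218 in TL-CDK8i, and between 2859 and 7031 in the 5 protocols. NES itself was called lower in E-NHSM, NHSM-v, t2iLGöY, and TL-CDK8i, and NEUROG2 was at 0 in E-NHSM. The part of neural cells in the rise of the polysialyltransferases was not tested.

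Among the enzymes of terminal sialylation, ST3GAL1 and ST6GAL2 rose and ST6GAL1 fell in the 5 protocols. ST3GAL1, which caps core 1 O-glycans with α2,3-linked sialic acid, was at 5.43, 11.6, and 13.8 CPM in primed and at 14.6, 14.3, and 18.1 CPM in E-NHSM. It rose to 237, 235, and 244 CPM in NHSM-v, 120.3, 133, and 135 CPM in 4i/L/b, and 137, 145, and 119.7 CPM in t2iLGöY. In TL2i, LCDM (EPS), and TL-CDK8i it spanned 34.3 to 41.3, 36.1 to 47.5, and 36.5 to 58.4 CPM. All 7 protocols lay above the primed libraries, and NHSM-v above all others. The increase was 22.8-fold in NHSM-v (log2 fold change 4.51 ± 0.21, adjusted p = 1.35e-10) and 3.6-fold in TL2i (log2 fold change 1.85 ± 0.26, adjusted p = 5.48e-05), was called in the 5 protocols and TL-CDK8i, and was not called in E-NHSM (log2 fold change 0.62 ± 0.31, adjusted p = 0.158). Of the 6 α2,3-sialyltransferases, 5 were higher in NHSM-v, 3 in t2iLGöY, 2 in each of 4i/L/b, TL2i, and LCDM (EPS), 1 in TL-CDK8i, and 0 in E-NHSM by edgeR, where 0 also passed an unadjusted p of 0.05 and 0 were called by DESeq2. Among all genes tested, from 11.1% (E-NHSM) to 28.2% (LCDM (EPS)) were called higher. ST3GAL3, which acts on N-acetyllactosamine, was higher in NHSM-v, t2iLGöY, TL2i, and 4i/L/b, and ST3GAL6, with a similar acceptor, in NHSM-v. ST3GAL4 was higher in NHSM-v (log2 fold change 0.47 ± 0.19, adjusted p = 0.0418) and lower in LCDM (EPS) (log2 fold change -0.70 ± 0.21, adjusted p = 0.0105). ST3GAL3 lost its call in t2iLGöY without t2iLGöY 2 (adjusted p = 0.0709) and with the J libraries alone (0.0671), and in TL2i with the J libraries alone (adjusted p = 0.0503). ST3GAL6 lost its call in NHSM-v without NHSM-v 1, 2, or 3 or Primed J3, K1, K2, or K3 (adjusted p 0.0532 to 0.147), with upper-quartile scaling (0.0525), and with the J libraries alone (0.194). ST3GAL4 lost its call in LCDM (EPS) without LCDM (EPS) 1 or 2 (adjusted p 0.0502 to 0.0591) and with the K libraries alone (0.0584), and in NHSM-v without NHSM-v 1, 2, or 3 or Primed K2 or K3 (adjusted p 0.0522 to 0.128), with upper-quartile scaling (0.0516), and with the J libraries alone (0.207).

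ST6GAL1, which adds α2,6-linked sialic acid to N-glycans, was at 82.8, 97.9, and 118 CPM in primed cells. It was at 34.7, 35.3, and 36.5 CPM in 4i/L/b, 49.5, 34.8, and 42.2 CPM in TL2i, 46.5, 54.9, and 40.6 CPM in NHSM-v, 44.1, 41.1, and 55.8 CPM in t2iLGöY, and 45.4, 53.4, and 46.6 CPM in LCDM (EPS). No library of the 5 protocols reached the lowest primed level, whereas E-NHSM (77.7 to 88.4 CPM) and TL-CDK8i (81 to 103 CPM) overlapped it. The fall was called in the 5 protocols, from LCDM (EPS) (log2 fold change -1.02 ± 0.13, adjusted p = 1.01e-05) to 4i/L/b (log2 fold change -1.52 ± 0.13, adjusted p = 2.74e-07). Its paralog ST6GAL2 moved the other way. From 9.57, 18.7, and 27.2 CPM in primed it rose to 250.4, 233, and 239 CPM in 4i/L/b (12.3-fold; log2 fold change 3.63 ± 0.24, adjusted p = 3.37e-08) and 96.8, 102, and 97.5 CPM in TL2i. It was called higher in the 5 protocols and TL-CDK8i, and was at 14.1, 6.89, and 9.8 CPM in E-NHSM, inside or under the primed range. CMAS, which activates sialic acid to the CMP-sialic acid that all these enzymes use, was at 75.1, 87.7, and 100 CPM in primed and fell in the 5 protocols, most in NHSM-v (29.8, 30.1, and 43 CPM; log2 fold change -1.39 ± 0.15, adjusted p = 1.85e-06). SLC35A1, which carries CMP-sialic acid into the Golgi, was higher in the same 5, as in LCDM (EPS) (log2 fold change 1.39 ± 0.29, adjusted p = 0.000926), so the synthase of the donor was lower where its transporter was higher. SLC35A1 lost its call in NHSM-v without NHSM-v 2 (adjusted p = 0.152) and with the J libraries alone (0.0674), and in t2iLGöY without t2iLGöY 1 (adjusted p = 0.0633), and in 4i/L/b without 4i/L/b 2 (adjusted p = 0.0543).

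**Figure D3:**
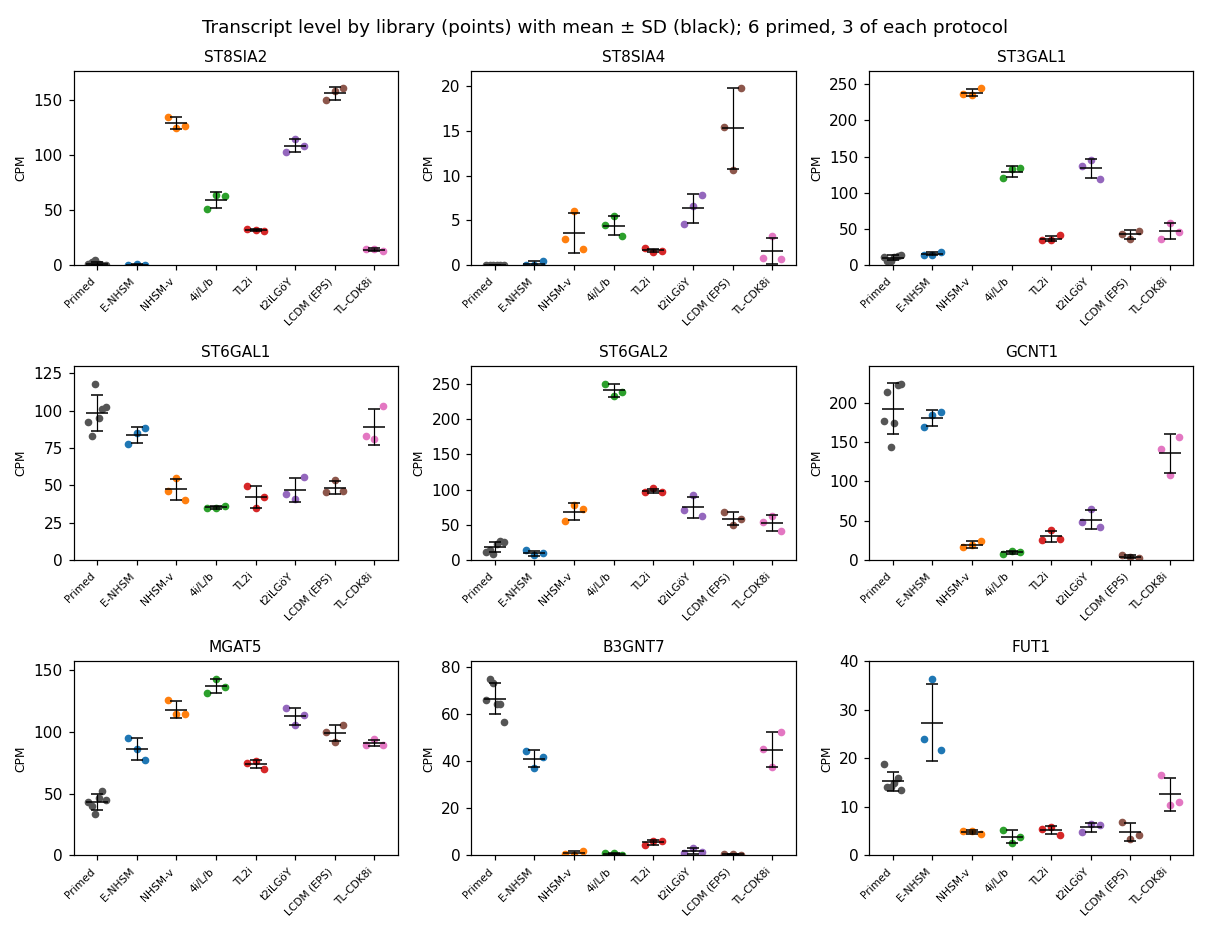
CPM of 9 members (y axes, linear, 1 panel a gene) in each of the 27 libraries (points) by group (x axes), with mean ± SD as bars. ST8SIA2, ST8SIA4, ST3GAL1, ST6GAL2, and MGAT5 are high and ST6GAL1, GCNT1, B3GNT7, and FUT1 low in the 5 protocols, while E-NHSM stays near the primed level for ST8SIA2 (at most 1.22 CPM) and GCNT1.

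O-GalNAc glycosylation starts with 1 of the GALNT enzymes, which add N-acetylgalactosamine to serine or threonine. Of 16 members, 4 were higher in E-NHSM and 4 lower, 6 higher and 1 lower in NHSM-v, 7 and 1 in 4i/L/b, 4 and 1 in TL2i, 6 and 3 in t2iLGöY, 3 and 5 in LCDM (EPS), and 7 and 1 in TL-CDK8i. Depending on the protocol, 11.1% to 28.2% of all genes were called higher and 15.1% to 30.6% lower. GALNT2, a broadly expressed initiating enzyme, was at 78.4, 80.02, and 99 CPM in primed, at 404, 367, and 374 CPM in NHSM-v, and at 217, 232, and 229 CPM in 4i/L/b. E-NHSM (53.5, 56.1, and 53.8 CPM) lay under the primed libraries. GALNT2 rose 4.48-fold in NHSM-v (log2 fold change 2.16 ± 0.0903, adjusted p = 4.06e-11), was called higher in the 5 protocols and TL-CDK8i, and fell in E-NHSM (log2 fold change -0.63 ± 0.12, adjusted p = 0.000681). GALNT16 ranged from 11, 10.4, and 9.04 CPM in E-NHSM to 472, 460, and 432 CPM in NHSM-v, with primed at 11.4, 21.6, and 32.1 CPM. It rose 20.9-fold in NHSM-v (log2 fold change 4.39 ± 0.20, adjusted p = 9.38e-11), was higher in LCDM (EPS), NHSM-v, t2iLGöY, 4i/L/b, and TL-CDK8i, and lower in E-NHSM (log2 fold change -1.08 ± 0.29, adjusted p = 0.00893). GALNT10, which prefers peptides that already carry N-acetylgalactosamine, was at 93, 129, and 146 CPM in primed and 817, 824, and 728 CPM in t2iLGöY (6.6-fold; log2 fold change 2.72 ± 0.12, adjusted p = 9.67e-11). It was higher in NHSM-v, t2iLGöY, TL2i, 4i/L/b, and E-NHSM and lower in LCDM (EPS) (log2 fold change -0.34 ± 0.14, adjusted p = 0.0485), whose libraries (95.7, 91.7, and 102 CPM) overlapped the primed range. GALNT2 lost its call in TL2i without Primed J1, J2, or K2 or TL2i 1 or 3 (adjusted p 0.0508 to 0.145) and with the K libraries alone (0.105). GALNT16 lost its call in E-NHSM without E-NHSM 3 (adjusted p = 0.0541). GALNT10 lost its call in LCDM (EPS) without LCDM (EPS) 1, 2, or 3 or Primed J1, K1, K2, or K3 (adjusted p 0.0726 to 0.178), in DESeq2 (0.06), without the filter on low counts (0.0651), with at least 10 counts in every library (0.0646), and with the J libraries alone (0.358).

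GALNT7, another enzyme with a preference for glycosylated peptides, went down. It was at 102, 125, and 152 CPM in primed, 34.9, 52.4, and 50.5 CPM in E-NHSM, 45, 38.4, and 39.2 CPM in LCDM (EPS), and 53, 50.4, and 49.5 CPM in t2iLGöY, with no overlap between these 3 groups and primed. The decrease was called in LCDM (EPS), t2iLGöY, TL2i, 4i/L/b, and E-NHSM, by a factor of 3.06 in LCDM (EPS) (log2 fold change -1.61 ± 0.13, adjusted p = 1.4e-07). GALNT6 split the protocols. At 4.22, 7.56, and 8.96 CPM in primed, it was at 15.4, 18.7, and 20.1 CPM in E-NHSM and 18.7, 19.7, and 17.7 CPM in TL-CDK8i, both above all primed libraries. In t2iLGöY (0.819, 0, and 0 CPM) and LCDM (EPS) (0.342, 0, and 0 CPM) it was nearly absent, and it was lower in LCDM (EPS), NHSM-v, and t2iLGöY (log2 fold change -2.23 ± 0.57, adjusted p = 0.00334 for NHSM-v). GALNT3 rose in E-NHSM (9.61, 12.2, and 10.01 CPM against 0, 2.24, and 5.29 CPM; log2 fold change 2.24 ± 0.75, adjusted p = 0.0341) and in LCDM (EPS) (log2 fold change 2.56 ± 0.78, adjusted p = 0.0124). GALNT18 was higher in NHSM-v, t2iLGöY, TL2i, 4i/L/b, and TL-CDK8i, by 12.9-fold in NHSM-v (log2 fold change 3.69 ± 0.48, adjusted p = 8.91e-06) and 10.7-fold in TL-CDK8i (log2 fold change 3.42 ± 0.48, adjusted p = 4.37e-05). GALNT7 lost its call in 4i/L/b without 4i/L/b 1, 2, or 3 or Primed J2, K1, or K3 (adjusted p 0.0575 to 0.259), in DESeq2 (0.131), with upper-quartile scaling (0.0856), without the filter on low counts (0.0875), with at least 10 counts in every library (0.0839), with all 8 groups in one fit (0.06), with the J libraries alone (0.0501), and with the K libraries alone (0.0524). GALNT3 lost its call in LCDM (EPS) without LCDM (EPS) 1 (adjusted p = 0.0528), and in E-NHSM without E-NHSM 1, 2, or 3 or Primed K2 or K3 (adjusted p 0.0556 to 0.124). GALNT18 lost its call in t2iLGöY without t2iLGöY 2 (adjusted p = 0.0906) and with the J libraries alone (0.0727).

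The remaining initiating enzymes changed in fewer protocols. GALNT1 was higher in NHSM-v, 4i/L/b, and TL-CDK8i and lower in E-NHSM (log2 fold change -0.73 ± 0.12, adjusted p = 0.000143). GALNT11 was higher in E-NHSM (log2 fold change 0.78 ± 0.14, adjusted p = 0.000288) and lower in LCDM (EPS), t2iLGöY, and TL-CDK8i. GALNT4 was higher in NHSM-v, TL2i, and 4i/L/b (log2 fold change 2.16 ± 0.57, adjusted p = 0.00577 for 4i/L/b), and had no count in Primed J3. GALNT12 was called in LCDM (EPS) only, where it was lower (5.35, 8.35, and 3.79 CPM against 10.3, 21.5, and 29.8 CPM; log2 fold change -1.90 ± 0.37, adjusted p = 0.000557), and GALNT13 in 4i/L/b only, where it was higher (log2 fold change 0.94 ± 0.27, adjusted p = 0.00814). GALNT14 was higher in t2iLGöY (log2 fold change 3.35 ± 0.72, adjusted p = 0.00115) and TL-CDK8i (log2 fold change 2.40 ± 0.79, adjusted p = 0.0214). GALNT5 was higher in TL-CDK8i, at 5.28, 10.8, and 7.54 CPM against 0, 0, and 1.57 CPM (log2 fold change 4.93 ± 1.21, adjusted p = 0.00395). GALNT15 had no count in primed cells and was at 1.16, 4.54, and 2.38 CPM in t2iLGöY, at least 8.89-fold higher than 3 counts per primed library (adjusted p = 0.00177). As for ST8SIA4, only a rise could be called. GALNT1 lost its call in NHSM-v without NHSM-v 1 or 2 (adjusted p 0.0595 to 0.116) and with the K libraries alone (0.0598). GALNT11 lost its call in LCDM (EPS) without LCDM (EPS) 3 (adjusted p = 0.0673). GALNT4 lost its call in TL2i without TL2i 1, 2, or 3 (adjusted p 0.0716 to 0.117). GALNT14 lost its call in TL-CDK8i without TL-CDK8i 2 or 3 (adjusted p 0.0894 to 0.105).

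Of 9 members that act on mucin cores, GCNT1 was lower and ST3GAL1 higher in the 5 protocols and in TL-CDK8i, and GCNT4 was lower in NHSM-v and LCDM (EPS). GCNT1, which converts core 1 to core 2, was at 144, 195, and 224 CPM in primed and 169, 185, and 188 CPM in E-NHSM. It was at 6.49, 3.68, and 2.98 CPM in LCDM (EPS), 8.65, 12, and 10.01 CPM in 4i/L/b, and 16.5, 18.8, and 24.5 CPM in NHSM-v. Levels of 26.1, 38.8, and 27.4 CPM in TL2i and 48.2, 64.7, and 42.1 CPM in t2iLGöY also lay under every primed library, whereas TL-CDK8i (142, 109, and 156 CPM) and E-NHSM overlapped primed. The fall was called in the 5 protocols and TL-CDK8i, reaching a factor of 44.1 in LCDM (EPS) (log2 fold change -5.46 ± 0.25, adjusted p = 4.02e-10) and 19.4 in 4i/L/b (log2 fold change -4.28 ± 0.18, adjusted p = 4.35e-10). GCNT4, another core 2 enzyme with low counts, was lower in NHSM-v, with 2 counts in all 3 libraries together (adjusted p = 0.00379), and in LCDM (EPS) (0, 0.471, and 0.325 CPM against 1.24, 2.32, and 3.34 CPM; log2 fold change -3.09 ± 1.10, adjusted p = 0.027). GCNT3, which makes cores 2 and 4, was at 2.52, 1.23, and 1.74 CPM in TL-CDK8i, and at 1.37 CPM at most in any other library, and was not called against primed. ST6GALNAC2 and ST6GALNAC4, which sialylate core structures, were tested in all 7 protocols and called in none, and GCNT7 was tested in 2 and called in none. GCNT1 lost its call in TL-CDK8i without TL-CDK8i 2 (adjusted p = 0.0601) and with the J libraries alone (0.0605). GCNT4 lost its call in LCDM (EPS) without LCDM (EPS) 1 or 3 (adjusted p 0.0765 to 0.0797).

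Of 10 enzymes of N-glycan branches and core, 6 were higher and 2 lower in NHSM-v, 5 and 3 in LCDM (EPS), 4 and 3 in 4i/L/b, 4 and 2 in each of TL2i and t2iLGöY, 2 and 4 in TL-CDK8i, and 1 and 3 in E-NHSM. These counts stand beside 11.1% to 28.2% of all genes called higher and 15.1% to 30.6% lower. MGAT5, which starts the β1,6 branch, was at 33.7, 44, and 52.5 CPM in primed, 132, 143, and 136 CPM in 4i/L/b, 126, 114, and 114 CPM in NHSM-v, and 74.9, 76, and 70.1 CPM in TL2i. All 21 libraries of the 7 protocols lay above all primed libraries. MGAT5 was the only member called higher in every protocol, from TL2i (log2 fold change 0.76 ± 0.13, adjusted p = 0.000321) to 4i/L/b (log2 fold change 1.61 ± 0.12, adjusted p = 1.07e-07). MGAT4A, which adds the β1,4 branch, was at 0.857, 2.84, and 5.76 CPM in primed and 21, 17, and 18.7 CPM in LCDM (EPS), and was higher in the 5 protocols and TL-CDK8i, by 6.06-fold in LCDM (EPS) (log2 fold change 2.60 ± 0.42, adjusted p = 0.000112). MGAT4C, of the same family, was at 9.24, 13.3, and 23.7 CPM in primed, and had no count in NHSM-v and 4i/L/b, at least 51.1-fold and 49.4-fold lower. It was also lower in TL2i (4 counts in all), t2iLGöY (0.819, 1.47, and 1.08 CPM), LCDM (EPS) (0.398, 0.33, and 0 CPM), and TL-CDK8i (2.98, 3.01, and 2.42 CPM), whereas E-NHSM (10.7, 9.18, and 20.4 CPM) overlapped the primed range (log2 fold change -0.21 ± 0.34, adjusted p = 0.714). FUT8, which adds the core fucose, rose in the 5 protocols, from 28.2, 30.7, and 51.4 CPM in primed to 116, 108, and 124 CPM in LCDM (EPS) (log2 fold change 1.79 ± 0.17, adjusted p = 6.65e-07). MGAT4A lost its call in NHSM-v without NHSM-v 1, 2, or 3 or Primed J1, J2, or K1 (adjusted p 0.0568 to 0.139) and with the K libraries alone (0.0967). FUT8 lost its call in t2iLGöY without t2iLGöY 3 (adjusted p = 0.0647) and with the J libraries alone (0.0818).

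Other enzymes of N-glycans differed between protocols in direction. MGAT2, which starts the α1,6 arm of complex N-glycans, rose in NHSM-v, t2iLGöY, TL2i, and 4i/L/b (log2 fold change 1.30 ± 0.13, adjusted p = 5.83e-07 for NHSM-v) and fell in E-NHSM (log2 fold change -0.59 ± 0.18, adjusted p = 0.0187). MGAT1, the entry enzyme to complex and hybrid N-glycans, fell in LCDM (EPS), t2iLGöY, 4i/L/b, and TL-CDK8i, most in LCDM (EPS) (log2 fold change -0.69 ± 0.12, adjusted p = 0.000229). MGAT3, which adds the bisecting residue, was at 10.04, 13.8, and 19.6 CPM in primed and 34.7, 41.5, and 35.2 CPM in LCDM (EPS), where it rose 2.59-fold (log2 fold change 1.37 ± 0.21, adjusted p = 6.98e-05). It was also higher in NHSM-v (log2 fold change 0.64 ± 0.24, adjusted p = 0.0312) and lower in E-NHSM (log2 fold change -1.02 ± 0.32, adjusted p = 0.0253). MGAT4B rose in NHSM-v (log2 fold change 0.59 ± 0.10, adjusted p = 0.000169) and fell in LCDM (EPS), TL2i, TL-CDK8i, and E-NHSM, with 51.8, 52.8, and 49.4 CPM in LCDM (EPS) against 91.6, 101, and 119 CPM in primed. MGAT5B, a branching enzyme of brain O-mannose glycans, fell in NHSM-v, 4i/L/b, and TL-CDK8i and rose in LCDM (EPS) (log2 fold change 0.73 ± 0.28, adjusted p = 0.0391), whose libraries overlapped the primed ones. MGAT2 lost its call in TL2i without TL2i 1, 2, or 3 (adjusted p 0.0623 to 0.0859) and with the J libraries alone (0.0831), and in E-NHSM without E-NHSM 2 or 3 (adjusted p 0.0599 to 0.108) and with the K libraries alone (0.0513). MGAT3 lost its call in NHSM-v without NHSM-v 1, 2, or 3 (adjusted p 0.0672 to 0.0901) and with the J libraries alone (0.112), and in E-NHSM without E-NHSM 2 or 3 (adjusted p 0.0824 to 0.143). MGAT5B lost its call in LCDM (EPS) without LCDM (EPS) 1 or 2 or Primed K1, K2, or K3 (adjusted p 0.0606 to 0.125) and with the J libraries alone (0.206), and in TL-CDK8i without Primed J1, J2, or K3 or TL-CDK8i 1, 2, or 3 (adjusted p 0.0569 to 0.156) and without the filter on low counts (0.0538).

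Of 13 enzymes of N-acetyllactosamine chains, 5 were lower in each of 4i/L/b, TL2i, and LCDM (EPS), 4 in NHSM-v, 3 in t2iLGöY, 2 in E-NHSM, and 1 in TL-CDK8i, and from 2 to 4 were higher in each protocol. Over all genes, the calls came to 15.1% to 30.6% lower and 11.1% to 28.2% higher. B3GNT7, which extends keratan sulfate-type chains, was at 56.7, 65.2, and 75.1 CPM in primed cells. It was at 0.626, 0.707, and 0.0541 CPM in LCDM (EPS), 1.06, 0.973, and 0.385 CPM in 4i/L/b, 0.789, 0, and 1.76 CPM in NHSM-v, and 0.887, 3.27, and 1.45 CPM in t2iLGöY. In TL2i it was at 4.51, 6.001, and 6.29 CPM, and in E-NHSM and TL-CDK8i at 44.3, 37.1, and 41.7 and 45.1, 37.5, and 52.4 CPM, so all 21 libraries lay under the primed ones and E-NHSM and TL-CDK8i were nearest to them. The decrease ran from TL-CDK8i (log2 fold change -0.62 ± 0.14, adjusted p = 0.0024) to LCDM (EPS) (log2 fold change -7.12 ± 0.36, adjusted p = 9.39e-10). B3GNT2, the main poly-N-acetyllactosamine synthase, was at 62.1, 72.2, and 82.7 CPM in primed and fell in LCDM (EPS), NHSM-v, t2iLGöY, and 4i/L/b, by a factor of 11.9 in LCDM (EPS) (7.11, 7.78, and 3.36 CPM; log2 fold change -3.57 ± 0.24, adjusted p = 2.09e-08) and 8.52 in t2iLGöY (10.8, 5.4, and 8.81 CPM). In TL-CDK8i (105, 118, and 132 CPM; log2 fold change 0.65 ± 0.11, adjusted p = 0.000287) and E-NHSM (log2 fold change 0.32 ± 0.11, adjusted p = 0.0491) it rose, and in TL2i (log2 fold change -0.072 ± 0.11, adjusted p = 0.612) it was not called. GCNT2, which branches linear chains to I antigen, fell in the 5 protocols, as in 4i/L/b (39.9, 39.5, and 44.3 CPM against 62, 87.4, and 99.9 CPM; log2 fold change -1.09 ± 0.16, adjusted p = 7.12e-05), and rose in E-NHSM (log2 fold change 0.60 ± 0.14, adjusted p = 0.00382). B3GNT7 lost its call in TL-CDK8i with all 8 groups in one fit (adjusted p = 0.105), and in E-NHSM with all 8 groups in one fit (adjusted p = 0.0608). B3GNT2 lost its call in E-NHSM without E-NHSM 1, 2, or 3 or Primed J1, J2, J3, K1, or K3 (adjusted p 0.0516 to 0.149), without the filter on low counts (0.0552), with all 8 groups in one fit (0.139), and with the K libraries alone (0.133). GCNT2 lost its call in LCDM (EPS) without LCDM (EPS) 1, 2, or 3 or Primed K1, K2, or K3 (adjusted p 0.0523 to 0.12) and with the J libraries alone (0.35), and in TL2i without TL2i 1 or 3 (adjusted p 0.062 to 0.0929) and with the J libraries alone (0.184).

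The galactosyltransferases of these chains rose in part. B4GALT1, which adds the galactose of most N-acetyllactosamine units, was at 54.7, 66.8, and 78.5 CPM in primed, 155, 154, and 147 CPM in NHSM-v, 124, 140.5, and 128 CPM in TL2i, and 38, 49.3, and 39.4 CPM in LCDM (EPS). It rose in NHSM-v, TL2i, 4i/L/b, and TL-CDK8i (log2 fold change 1.17 ± 0.11, adjusted p = 3.91e-07 for NHSM-v) and fell in LCDM (EPS) (log2 fold change -0.65 ± 0.14, adjusted p = 0.00136). B4GALT3 was higher in LCDM (EPS), NHSM-v, TL2i, and 4i/L/b, B4GALT2 in LCDM (EPS) and t2iLGöY, and B4GALT4 was higher in E-NHSM (log2 fold change 0.63 ± 0.16, adjusted p = 0.00608) and lower in TL2i (log2 fold change -0.52 ± 0.17, adjusted p = 0.0195). B3GALT2, which makes type 1 chains, had 9 counts in the 6 primed libraries together, all in 1 of them, and was at 20.3, 22.9, and 21.8 CPM in t2iLGöY (log2 fold change 7.19 ± 0.86, adjusted p = 4.9e-06), 13, 11.3, and 17.1 CPM in LCDM (EPS) (log2 fold change 6.54 ± 0.96, adjusted p = 4.85e-05), and 1.8, 4.84, and 2.82 CPM in NHSM-v (log2 fold change 4.39 ± 1.35, adjusted p = 0.0113). B3GALT5, another type 1 enzyme, which also makes SSEA-3, was at 1.57, 5.46, and 12.1 CPM in primed, with the J libraries wholly under the K ones, and was lower in LCDM (EPS), NHSM-v, TL2i, 4i/L/b, and E-NHSM. B3GALT1 fell in 4i/L/b (log2 fold change -2.44 ± 0.63, adjusted p = 0.00477) and TL2i (log2 fold change -1.99 ± 0.59, adjusted p = 0.0124) and rose in LCDM (EPS) (log2 fold change 1.26 ± 0.41, adjusted p = 0.0171). B3GNT4 and B3GNT8 were tested in every protocol and called in none. B4GALT3 lost its call in LCDM (EPS) without LCDM (EPS) 1 or 2 or Primed K2 (adjusted p 0.0594 to 0.0919) and with the J libraries alone (0.116), and in TL2i without TL2i 2 or 3 (adjusted p 0.0541 to 0.0701) and with the J libraries alone (0.0598). B4GALT2 lost its call in t2iLGöY without Primed J1, J2, K1, K2, or K3 or t2iLGöY 1, 2, or 3 (adjusted p 0.0576 to 0.179) and with the J libraries alone (0.263). B4GALT4 lost its call in TL2i without TL2i 1, 2, or 3 (adjusted p 0.0506 to 0.0746). B3GALT2 lost its call in NHSM-v without NHSM-v 2 (adjusted p = 0.0651). B3GALT5 lost its call in LCDM (EPS) with the J libraries alone (adjusted p = 0.114), and in NHSM-v with the J libraries alone (adjusted p = 0.142), and in TL2i with the J libraries alone (adjusted p = 0.082), and in 4i/L/b without 4i/L/b 1, 2, or 3 or Primed K1 or K3 (adjusted p 0.0525 to 0.121) and with the J libraries alone (0.308), and in E-NHSM with the J libraries alone (adjusted p = 0.241). B3GALT1 lost its call in LCDM (EPS) without LCDM (EPS) 1 or 3 (adjusted p 0.052 to 0.0527), and in TL2i without TL2i 2 (adjusted p = 0.0618) and with the J libraries alone (0.0797).

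PODXL, the sialomucin that carries the TRA-1-60 and TRA-1-81 epitopes, is no transferase but displays their products. It was at 1518, 1899, and 2229 CPM in primed, 2619, 2403, and 2479 CPM in E-NHSM, and 1603, 1389, and 1638 CPM in TL-CDK8i. In TL2i it was at 739, 1065, and 879 CPM, and in NHSM-v, 4i/L/b, t2iLGöY, and LCDM (EPS) between 83.2 and 221 CPM. E-NHSM lay above every primed library, TL-CDK8i overlapped them, and the 5 protocols lay under them without overlap. It rose in E-NHSM (log2 fold change 0.40 ± 0.0815, adjusted p = 0.00122) and fell in the other 6, by a factor of 20.1 in t2iLGöY (log2 fold change -4.33 ± 0.12, adjusted p = 1.34e-12) and 2.12 in TL2i (log2 fold change -1.08 ± 0.13, adjusted p = 8.89e-06). PODXL lost its call in TL-CDK8i without TL-CDK8i 2 (adjusted p = 0.0816) and with the J libraries alone (0.143).

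**Figure D4:**
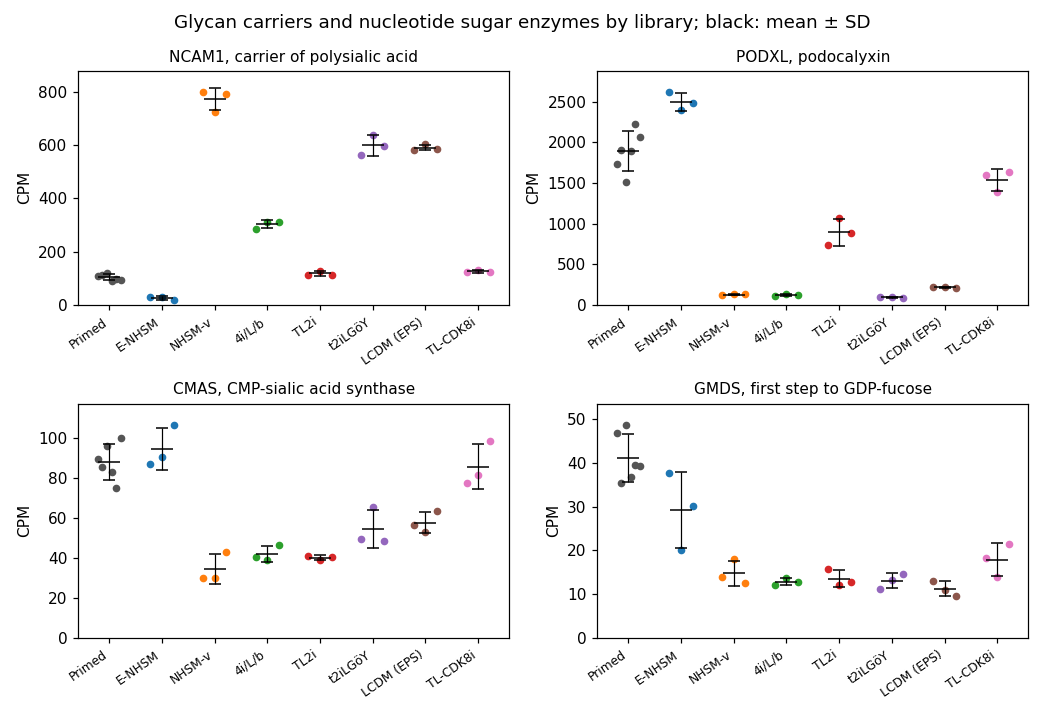
CPM of NCAM1, PODXL, CMAS, and GMDS (y axes, linear, starting at 0) in each library (points) by group (x axes), with mean ± SD as bars. NCAM1 is highest in NHSM-v (724 to 798 CPM), PODXL lies under every primed library in the 5 protocols, CMAS is low in the 5 protocols, and GMDS is low in those and in TL-CDK8i.

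Of 14 glycolipid enzymes, 7 were higher and 2 lower in t2iLGöY, 5 and 2 in LCDM (EPS), 5 and 1 in each of NHSM-v, 4i/L/b, and TL-CDK8i, and 4 and 1 in TL2i. In these protocols, 22.3% to 28.2% of all genes were called higher and 23.8% to 30.6% lower. In E-NHSM, 0 of the 13 tested were called by edgeR, and 1, A4GALT, passed an unadjusted p of 0.05 and was called by DESeq2. ST6GALNAC5, which makes α-series gangliosides of the brain, was at 0, 1.03, and 2.14 CPM in primed, 38.7, 24.7, and 33.9 CPM in NHSM-v, and 10.4, 24.6, and 18 CPM in t2iLGöY. It was called higher in the 5 protocols, from TL2i (log2 fold change 2.14 ± 0.82, adjusted p = 0.0435) to NHSM-v (log2 fold change 4.95 ± 0.51, adjusted p = 7.77e-07). ST8SIA1, the GD3 synthase, was at 0, 2.04, and 5.73 CPM in primed and 35.6, 27.8, and 31.8 CPM in LCDM (EPS), 18.5, 18.1, and 19.1 CPM in t2iLGöY, 13.3, 13, and 14.9 CPM in TL-CDK8i, and 13.4, 13.1, and 12.4 CPM in TL2i. It rose in these 4, none of which overlapped primed, by 12.8-fold in LCDM (EPS) (log2 fold change 3.68 ± 0.55, adjusted p = 5.63e-05). ST3GAL5, the GM3 synthase, rose in LCDM (EPS) and t2iLGöY (log2 fold change 2.75 ± 0.43, adjusted p = 7.4e-05 for t2iLGöY), and ST3GAL2, which caps globo- and gangliosides and makes SSEA-4, in NHSM-v only (65, 77.7, and 74.7 CPM against 13.6, 28, and 30.3 CPM; log2 fold change 1.51 ± 0.21, adjusted p = 2.18e-05). B4GALNT1, which makes GM2 and GD2, was at 6.69, 9.49, and 11.6 CPM in primed and 57.3, 46.1, and 56.4 CPM in NHSM-v (log2 fold change 2.49 ± 0.20, adjusted p = 4.58e-08), and was higher in LCDM (EPS), NHSM-v, t2iLGöY, 4i/L/b, and TL-CDK8i. ST8SIA3, a sialyltransferase of neural tissue, fell in the 5 protocols, from 15, 20.5, and 28.6 CPM to 0.902, 1.34, and 2.2 CPM in NHSM-v (log2 fold change -3.84 ± 0.40, adjusted p = 9.69e-07). ST6GALNAC5 lost its call in TL2i without Primed J1, J2, K1, or K3 or TL2i 1, 2, or 3 (adjusted p 0.0536 to 0.157). B4GALNT1 lost its call in t2iLGöY without Primed J1, J2, K1, K2, or K3 or t2iLGöY 1, 2, or 3 (adjusted p 0.0507 to 0.196), without the filter on low counts (0.0526), with the J libraries alone (0.0955), and with the K libraries alone (0.0552), and in TL-CDK8i without TL-CDK8i 1, 2, or 3 (adjusted p 0.0671 to 0.0799). ST8SIA3 lost its call in t2iLGöY without t2iLGöY 1 or 3 (adjusted p 0.0763 to 0.0836) and with the J libraries alone (0.215), and in TL2i without TL2i 2 (adjusted p = 0.0576) and with the J libraries alone (0.146).

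At the branch points of glycolipid synthesis, B4GALT6, a lactosylceramide synthase, rose in t2iLGöY, TL2i, 4i/L/b, and TL-CDK8i, to 145, 179, and 131 CPM in t2iLGöY against 14.3, 25.7, and 32.4 CPM (log2 fold change 2.67 ± 0.21, adjusted p = 6.92e-08). Its paralog B4GALT5 was higher in TL-CDK8i (log2 fold change 0.42 ± 0.14, adjusted p = 0.021) and lower in LCDM (EPS) (log2 fold change -0.58 ± 0.14, adjusted p = 0.00271). B3GNT5, which starts the lacto-series, was at 10.1, 17.6, and 25.7 CPM in primed and rose in LCDM (EPS), NHSM-v, t2iLGöY, and 4i/L/b, by 5.07-fold in LCDM (EPS) (95.8, 90.2, and 86.5 CPM; log2 fold change 2.34 ± 0.22, adjusted p = 7.22e-07). A4GALT, the Gb3 synthase that starts the globo-series, was at 0, 1.3, and 3.13 CPM in primed and 9.75, 12.6, and 9.67 CPM in TL-CDK8i, above all primed libraries (log2 fold change 2.69 ± 0.75, adjusted p = 0.00893). In t2iLGöY it had no count, at least 7.7-fold lower (adjusted p = 0.0114). ST6GALNAC3 was higher in NHSM-v, t2iLGöY, TL2i, and 4i/L/b, with the largest log2 fold change 0.78, B3GALT4, the GM1 synthase, was lower in TL-CDK8i only (log2 fold change -1.89 ± 0.66, adjusted p = 0.0286), and ST6GALNAC6 was called in none. UGCG, which makes the glucosylceramide on which these lipids are built, was at 17, 24.9, and 28.8 CPM in primed and 80.9, 83.6, and 81.6 CPM in 4i/L/b (log2 fold change 1.71 ± 0.15, adjusted p = 3.84e-07), and was higher in NHSM-v, TL2i, 4i/L/b, and TL-CDK8i and lower in t2iLGöY (log2 fold change -0.71 ± 0.28, adjusted p = 0.045). B4GALT6 lost its call in TL-CDK8i without TL-CDK8i 1 or 2 (adjusted p 0.0553 to 0.0642). B4GALT5 lost its call in TL-CDK8i without TL-CDK8i 1 or 3 (adjusted p 0.0572 to 0.0854) and with the K libraries alone (0.0964). ST6GALNAC3 lost its call in TL2i without TL2i 1 or 3 (adjusted p 0.0502 to 0.0639) and with the J libraries alone (0.0669). B3GALT4 lost its call in TL-CDK8i without TL-CDK8i 2 or 3 (adjusted p 0.121 to 0.124) and with the K libraries alone (0.0509). UGCG lost its call in t2iLGöY without Primed J1, J2, K1, K2, or K3 or t2iLGöY 1 or 2 (adjusted p 0.0509 to 0.201), with the J libraries alone (0.121), and with the K libraries alone (0.0648), and in TL2i without Primed K1 or K2 or TL2i 1, 2, or 3 (adjusted p 0.0609 to 0.122) and with the J libraries alone (0.107).

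Of the 7 fucosyltransferases, FUT1 was the 1 that fell in the 5 protocols, while 3 were higher in each of TL2i and LCDM (EPS), 2 in each of E-NHSM and 4i/L/b, and 1 in each of NHSM-v, t2iLGöY, and TL-CDK8i. Calls higher took 11.1% (E-NHSM) to 28.2% (LCDM (EPS)) of all genes. FUT1, which makes the H type 1 and type 2 antigens, was at 13.5, 14.5, and 18.9 CPM in primed and 23.9, 36.4, and 21.6 CPM in E-NHSM. It was at 5.29, 2.55, and 3.75 CPM in 4i/L/b, 5.08, 5.04, and 4.4 CPM in NHSM-v, and 6.94, 3.3, and 4.28 CPM in LCDM (EPS). The 5 protocols lay under the primed range without overlap and E-NHSM above it, while TL-CDK8i (16.5, 10.4, and 11 CPM) overlapped it. FUT1 fell in the 5 protocols, by a factor of 4.04 in 4i/L/b (log2 fold change -2.01 ± 0.30, adjusted p = 6.96e-05), and rose in E-NHSM (log2 fold change 0.83 ± 0.22, adjusted p = 0.00827). FUT11 was at 11.4, 13.9, and 26.6 CPM in primed, where Primed J3 was highest, and rose in the 5 protocols and TL-CDK8i, by 4.12-fold in NHSM-v (69.6, 52.1, and 72.9 CPM; log2 fold change 2.04 ± 0.23, adjusted p = 2.61e-06). FUT10 was higher in TL2i, 4i/L/b, and E-NHSM (log2 fold change 1.42 ± 0.44, adjusted p = 0.0224 for E-NHSM). FUT4, a Lewis x enzyme, was called in none, with primed libraries spread from 0.432 to 9.24 CPM. FUT9, the main Lewis x enzyme of the nervous system, had no count in primed and was at 1.65, 3.77, and 2.38 CPM in LCDM (EPS), at least 8.59-fold higher (adjusted p = 0.0011). As for ST8SIA4, only a rise could be called. In t2iLGöY FUT9 did not pass the filter, though it was at 2.52, 5.34, and 0.289 CPM. The mean there was at least 8.97-fold higher than 3 counts per primed library. FUT5 was higher in TL2i (2.79, 3.79, and 2.12 CPM; log2 fold change 4.15 ± 1.31, adjusted p = 0.0171) and LCDM (EPS) (3.64, 3.77, and 4.82 CPM; log2 fold change 4.64 ± 1.29, adjusted p = 0.00709) against 0, 0, and 0.887 CPM in primed. FUT1 lost its call in E-NHSM without E-NHSM 2 (adjusted p = 0.133). FUT11 lost its call in t2iLGöY with the J libraries alone (adjusted p = 0.0637). FUT10 lost its call in TL2i without TL2i 1 or 2 (adjusted p 0.0573 to 0.0958), and in 4i/L/b without 4i/L/b 1 or 3 (adjusted p 0.0515 to 0.0686), and in E-NHSM without E-NHSM 1 or 3 (adjusted p 0.058 to 0.136). FUT5 lost its call in TL2i without TL2i 1 or 2 (adjusted p 0.054 to 0.0734).

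The donor of these enzymes, GDP-fucose, is made by GMDS and TSTA3. GMDS was at 35.3, 39.4, and 48.7 CPM in primed and 13.1, 10.9, and 9.58 CPM in LCDM (EPS), and TL-CDK8i, at 18.2, 13.9, and 21.4 CPM, lay under every primed library as well. GMDS fell in the 5 protocols and TL-CDK8i, by a factor of 3.66 in LCDM (EPS) (log2 fold change -1.87 ± 0.19, adjusted p = 1.08e-06), and was not called in E-NHSM (log2 fold change -0.49 ± 0.19, adjusted p = 0.0713). TSTA3 fell in the same 6, as in LCDM (EPS) (log2 fold change -0.86 ± 0.20, adjusted p = 0.00192). TSTA3 lost its call in t2iLGöY without t2iLGöY 3 (adjusted p = 0.051), and in TL2i without TL2i 1 or 2 (adjusted p 0.0832 to 0.121) and with the K libraries alone (0.0853).

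LacdiNAc, a chain of N-acetylgalactosamine on N-acetylglucosamine, is made by B4GALNT3 and B4GALNT4. B4GALNT3 was at 2.9, 8.1, and 18.7 CPM in primed, fell in LCDM (EPS) (1.71, 2.17, and 2.22 CPM; log2 fold change -2.17 ± 0.60, adjusted p = 0.00694) and t2iLGöY (log2 fold change -2.27 ± 0.66, adjusted p = 0.00921), and rose in TL2i (log2 fold change 1.18 ± 0.46, adjusted p = 0.0476). B4GALNT4 fell in TL-CDK8i (48.6, 41.7, and 39.1 CPM against 77, 101, and 127 CPM; log2 fold change -1.29 ± 0.19, adjusted p = 7.93e-05) and E-NHSM (log2 fold change -0.84 ± 0.17, adjusted p = 0.00142), and its J libraries lay wholly above its K libraries. B4GALT7 and B3GALT6, which add the galactose residues of the linker on which heparan and chondroitin sulfate are built, were both higher in NHSM-v, 4i/L/b, and LCDM (EPS), and B4GALT7 also in t2iLGöY. B4GALT7 was at 12.2, 13.2, and 18.3 CPM in primed and 31.8, 37.2, and 29.1 CPM in NHSM-v (log2 fold change 1.22 ± 0.20, adjusted p = 9.41e-05), and B3GALT6 at 0.893, 3.78, and 9.86 CPM and 14.9, 12.2, and 12.1 CPM (log2 fold change 1.61 ± 0.58, adjusted p = 0.026). B3GNT9 fell in LCDM (EPS) and TL2i (log2 fold change -3.21 ± 0.68, adjusted p = 0.00112 for LCDM (EPS)). ST8SIA6, which makes disialic acid on glycoproteins, rose in TL-CDK8i (4.36, 5.13, and 8.02 CPM against 0, 0.449, and 1.33 CPM; log2 fold change 3.29 ± 1.07, adjusted p = 0.0204). B4GALNT3 lost its call in TL2i without Primed J1, K1, K2, or K3 or TL2i 2 or 3 (adjusted p 0.0593 to 0.157) and with the J libraries alone (0.206). B4GALT7 lost its call in 4i/L/b without 4i/L/b 1, 2, or 3 or Primed J1 or K2 (adjusted p 0.0538 to 0.125) and with the J libraries alone (0.104). B3GALT6 lost its call in LCDM (EPS) without LCDM (EPS) 1 or 2 (adjusted p 0.0601 to 0.0864) and with the J libraries alone (0.0629), and in NHSM-v without NHSM-v 1, 2, or 3 (adjusted p 0.0563 to 0.0822) and with the J libraries alone (0.0652), and in 4i/L/b without 4i/L/b 1, 2, or 3 or Primed J1, J2, K2, or K3 (adjusted p 0.058 to 0.129) and with the J libraries alone (0.106). B3GNT9 lost its call in TL2i without Primed J2, K1, K2, or K3 or TL2i 1, 2, or 3 (adjusted p 0.0554 to 0.135), with upper-quartile scaling (0.0512), without the filter on low counts (0.0538), and with the J libraries alone (0.136). ST8SIA6 lost its call in TL-CDK8i without TL-CDK8i 2 or 3 (adjusted p 0.0603 to 0.106).

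TL-CDK8i and TL2i share tamoxifen and STAT3-ERT2 and differ in their inhibitors, so their comparison, of 3 libraries each, sets the CDK8/19 inhibitor against the MEK and GSK3β inhibitors. Their cells also differed in markers of cell type, given below, and inhibitor and cell type cannot be told apart here. Among 72 members tested, 32 were higher in TL-CDK8i and 22 lower, beside 31.5% and 33.3% of all genes. The median log2 fold change was 0.063 over the members and -0.038 over all genes tested. All 7 enzymes that fell in the 5 protocols were higher in TL-CDK8i than in TL2i, as were 59.9% of the 1825 genes of the whole table that fell in the 5. The TL2i libraries entered the choice of these genes, so nothing is read from their direction here. The members were GCNT1 (log2 fold change 2.11 ± 0.16, adjusted p = 9.79e-08), B3GNT7 (log2 fold change 2.98 ± 0.18, adjusted p = 7.33e-09), FUT1 (log2 fold change 1.24 ± 0.24, adjusted p = 0.000455), ST6GAL1 (log2 fold change 1.04 ± 0.13, adjusted p = 1.19e-05), GCNT2 (log2 fold change 0.64 ± 0.10, adjusted p = 9.93e-05), and ST8SIA3 (log2 fold change 0.53 ± 0.17, adjusted p = 0.0141). MGAT4C, with 4 counts in TL2i and 2.98, 3.01, and 2.42 CPM in TL-CDK8i, was higher too (adjusted p = 7.72e-05). Of those that rose in the 5 protocols, ST8SIA2 (log2 fold change -1.23 ± 0.14, adjusted p = 3.05e-06), ST6GAL2 (log2 fold change -0.94 ± 0.13, adjusted p = 2.88e-05), FUT11 (log2 fold change -0.49 ± 0.11, adjusted p = 0.00109), ST6GALNAC5 (log2 fold change -0.94 ± 0.33, adjusted p = 0.023), and FUT8 (log2 fold change -0.28 ± 0.11, adjusted p = 0.0325) were lower in TL-CDK8i. GALNT2 (log2 fold change 0.40 ± 0.093, adjusted p = 0.00182), MGAT4A (log2 fold change 0.68 ± 0.17, adjusted p = 0.00331), and MGAT5 (log2 fold change 0.27 ± 0.0892, adjusted p = 0.0162) were higher there, and ST3GAL1 (log2 fold change 0.32 ± 0.15, adjusted p = 0.0698) and ST8SIA4 (log2 fold change -0.12 ± 0.55, adjusted p = 0.854) were not called. The TL2i libraries entered the choice of the genes that rose as well, which favours calls lower in TL-CDK8i. Nothing is read from their direction either, and the matching share of all genes that rose in the 5 was not computed. ST8SIA3 lost its call with all 8 groups in one fit (adjusted p = 0.229). FUT11 lost its call with all 8 groups in one fit (adjusted p = 0.0794). ST6GALNAC5 lost its call without TL2i 2 or 3 or TL-CDK8i 3 (adjusted p 0.0606 to 0.0996) and with all 8 groups in one fit (0.136). FUT8 lost its call without TL2i 1, 2, or 3 or TL-CDK8i 2 or 3 (adjusted p 0.0535 to 0.135), in DESeq2 (0.0629), without the filter on low counts (0.0514), with all 8 groups in one fit (0.272), and with a replicate block (0.058). MGAT4A lost its call with all 8 groups in one fit (adjusted p = 0.1). MGAT5 lost its call without TL2i 3 (adjusted p = 0.0526).

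Several other members differed between TL-CDK8i and TL2i, some of them by more. ST8SIA6 was at 4.36, 5.13, and 8.02 CPM in TL-CDK8i and 0.294, 0.0583, and 0 CPM in TL2i (log2 fold change 5.33 ± 0.61, adjusted p = 4.48e-06), without overlap. GCNT3 was at 2.52, 1.23, and 1.74 CPM in TL-CDK8i, with 1 count in the 3 TL2i libraries together (adjusted p = 4.05e-05). A4GALT was 5.82-fold higher in TL-CDK8i (log2 fold change 2.54 ± 0.29, adjusted p = 4.32e-06). FUT5, at 0.574, 0, and 0 CPM in TL-CDK8i and 2.79, 3.79, and 2.12 CPM in TL2i, had the largest fall (log2 fold change -3.98 ± 0.77, adjusted p = 0.00042), followed by GALNT8 (log2 fold change -2.03 ± 0.68, adjusted p = 0.0168) and GALNT3 (log2 fold change -1.87 ± 0.43, adjusted p = 0.00179). GALNT10 (log2 fold change -1.44 ± 0.10, adjusted p = 6.29e-08), ST3GAL3 (log2 fold change -1.18 ± 0.16, adjusted p = 2.03e-05), and B3GALT6 (log2 fold change -1.74 ± 0.25, adjusted p = 3.62e-05) were lower as well. Of the 54 calls, 42 remained with any single library left out, and 21 were lost in a fit that takes the spread from all 8 groups. The summed level of 10 mesenchymal markers was 8766 to 11330 CPM in TL-CDK8i and 2980 to 5778 CPM in TL2i. Without COL1A1, the sum was 2360 to 2883 CPM in TL-CDK8i and 1493 to 2488 CPM in TL2i, and these ranges overlap. Of 10 mesenchymal markers, 5 were called higher in TL-CDK8i and 1 lower. Of 10 pluripotency markers, 8 were higher and 0 lower. Of 8 neural markers tested, 1 was higher and 6 lower, and of 7 endoderm markers, 1 and 6. Of 5 trophoblast and amnion markers tested, 1 was higher and 3 lower, and of 3 blood and endothelium markers, 2 and 0. These stand beside 31.5% and 33.3% of all genes. The part of these cell types in the differences was not tested. GALNT8 lost its call without TL2i 2 or TL-CDK8i 2 or 3 (adjusted p 0.0688 to 0.0737) and with all 8 groups in one fit (0.174). GALNT3 lost its call with all 8 groups in one fit (adjusted p = 0.0763).

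**Figure D5:**
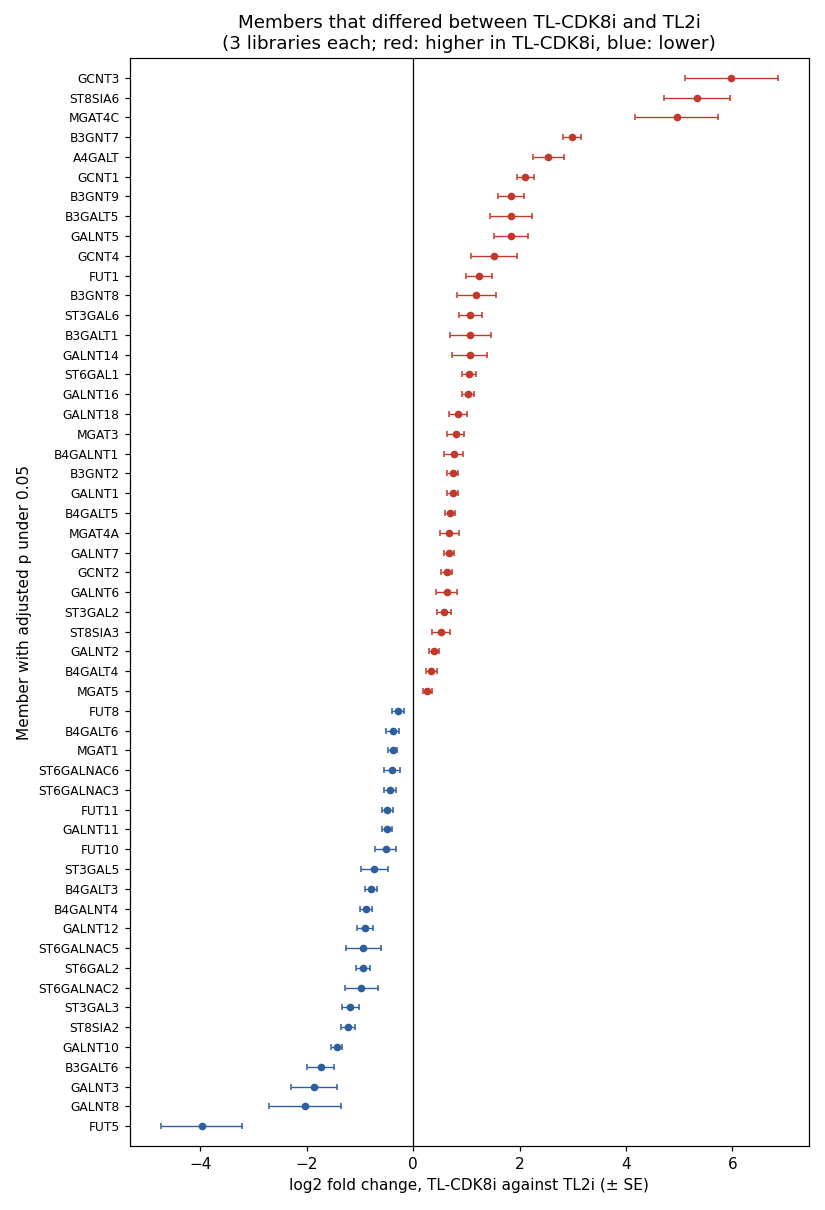
Log2 fold change of TL-CDK8i against TL2i (x axis) for the 54 members called (y axis, ordered by value), with SE as bars and 3 libraries a group. The 32 members higher in TL-CDK8i reach 5.98 (GCNT3, 1 count in TL2i) and the 22 lower ones -3.98 (FUT5).

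Markers of other cells also moved between groups. The mesenchymal sum was 1142 to 2424 CPM in primed, 456.5 to 495.9 in E-NHSM, 7886 to 8427 in NHSM-v, 11660 to 15150 in 4i/L/b, 3438 to 4049 in t2iLGöY, and 788.8 to 1024 in LCDM (EPS), with LUM and DCN at 0 in primed, E-NHSM, and t2iLGöY. COL1A1 made up much of it, from 84.29% to 85.69% in t2iLGöY, and the sum of the other 9 was 489.5 to 830.5 CPM in primed and 505.2 to 579.4 CPM in t2iLGöY. Of the 10, 8 were called higher in each of TL2i, 4i/L/b, and TL-CDK8i, 7 in NHSM-v, 3 in t2iLGöY, 2 in LCDM (EPS), and 1 in E-NHSM. Called lower were 5 in E-NHSM, 4 in LCDM (EPS), 2 in t2iLGöY (COL1A2 and THY1), and THY1 in TL2i and 4i/L/b. The part of mesenchymal cells in the changes of the members was not tested. Of 9 trophoblast and amnion markers, no protocol had over 2 called higher. KRT7 was called lower in 4i/L/b, t2iLGöY, and LCDM (EPS), and GATA3 and TFAP2A in E-NHSM. TFAP2A was at 1.33 to 6.37 CPM in primed, 172 to 189 in LCDM (EPS), 108 to 161 in t2iLGöY, and 77.8 to 89.9 in TL2i, and KRT7 at 1.43 to 4.42 CPM in primed and 129 to 219 in TL-CDK8i. Of 7 endoderm markers, 5 were called higher in TL2i, with APOA1 at 129 to 219.5 CPM against 9.06 to 16.8 CPM in primed, and at most 2 in any other protocol. AFP was called lower in TL2i, NHSM-v, 4i/L/b, t2iLGöY, and LCDM (EPS). APOA1 was lower in E-NHSM, NHSM-v, t2iLGöY, and LCDM (EPS), and FOXA2 in NHSM-v and t2iLGöY. The galectin LGALS1, which binds N-acetyllactosamine, was at 7.74, 11.8, and 22 CPM in primed and 199, 172, and 166 CPM in NHSM-v, and was higher in NHSM-v, t2iLGöY, TL2i, 4i/L/b, TL-CDK8i, and E-NHSM (log2 fold change 3.81 ± 0.22, adjusted p = 1.58e-09 for NHSM-v). LGALS3 was higher in NHSM-v, TL2i, 4i/L/b, and TL-CDK8i and lower in LCDM (EPS) and t2iLGöY. LGALS1 lost its call in t2iLGöY without Primed J1, J2, K1, K2, or K3 or t2iLGöY 1, 2, or 3 (adjusted p 0.0517 to 0.147) and with the J libraries alone (0.174), and in E-NHSM without E-NHSM 2 (adjusted p = 0.0836) and with the J libraries alone (0.0711). LGALS3 lost its call in LCDM (EPS) with the J libraries alone (adjusted p = 0.0535), and in t2iLGöY without t2iLGöY 3 (adjusted p = 0.0512) and with the J libraries alone (0.0924).

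Beyond the transferases, a list of 51 genes of the same pathways was examined, holding enzymes of nucleotide sugar synthesis, sugar transporters, mannosidases, sialidases, O-fucose and core 1 enzymes, sulfotransferases, galectins, and the carriers PODXL and NCAM1, of which 49 were found. Against primed, 4 were higher and 3 lower of 44 tested in E-NHSM (11.1% and 15.1% of all genes), 19 and 9 of 45 in NHSM-v (28% and 30.6%), 18 and 8 of 46 in 4i/L/b (26.6% and 29%), and 15 and 9 of 44 in TL2i (25.6% and 25.2%). In t2iLGöY, 12 were higher and 9 lower of 46 (27.1% and 27.2%), in LCDM (EPS) 11 and 12 of 46 (28.2% and 28.9%), and in TL-CDK8i 14 and 4 of 46 (22.3% and 23.8%). Between TL-CDK8i and TL2i, 16 were higher in TL-CDK8i and 9 lower, of 47 (31.5% and 33.3%).

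The other members were at low levels. B3GNT3, B3GNT6, B4GALNT2, FUT7, MGAT4D, ST6GALNAC1, and ST8SIA5 passed the filter in none of the comparisons with primed cells, and the highest level of any of them in any library was 2.87 CPM, of MGAT4D in t2iLGöY. FUT7, which makes the sialyl Lewis x of leukocytes, was at most 0.613 CPM. ST6GALNAC1, which makes sialyl-Tn, was at most 1.13 CPM. B4GALNT2, which makes the Sda antigen, was at most 0.432 CPM. Differences of FUT7, ST6GALNAC1, and B4GALNT2 from primed were not detectable at this depth. Among the 7 protocols, B3GNT6 (adjusted p = 0.0115) and MGAT4D (adjusted p = 0.0466) were called different. MGAT4D was at 2.87, 1.2, and 0.0723 CPM in t2iLGöY, in mean at least 4.55-fold higher than 3 counts per primed library, with 1 of the 3 libraries under that level. GALNT8 was tested in every protocol and called in none, and with B3GNT4, B3GNT8, FUT4, GCNT3, GCNT7, ST6GALNAC2, ST6GALNAC4, and ST6GALNAC6 it completes the 9 members tested against primed and never called.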

How the data were processed

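Directional poly(A) mRNA libraries of 27 samples were sequenced as single reads. The authors deposited whole-number counts for each gene symbol and library, neither normalized nor pooled. The submitters' processing notes name bcl2fastq, cutadapt, HISAT2, and HTSeq; the genome build, the annotation, and the strand setting are not given in the sources used here. How reads shared by paralogs or by overlapping genes were counted could not be examined. Columns were matched to groups by name, those of primed cells to the group only, and 0 columns were left over.

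TMM factors, CPM, and the quasi-likelihood test were computed in edgeR 4.0.16 (limma 3.58.1, R 4.3.3) on the libraries of the groups compared and the genes kept by filterByExpr, without a block. P-values were adjusted by Benjamini-Hochberg over all genes tested, with a threshold of 0.05. SE is the absolute log2 fold change over the root of F. The script was tested on simulated data. Alternatives were DESeq2 1.42.0, upper-quartile scaling, other count filters, 1 fit of all 8 groups, a minimum log2 fold change of 1, primed libraries of 1 letter, a replicate block, and leaving out each library. Members and lists were chosen with earlier results of these data known. The text names all 83 members, with values for those of fixed roles and for the 3 with the largest change in each direction of each comparison, and pathway genes chosen after their values were seen. The neural list is given without 1 of its genes, which is not reported here.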

Additional observations from a re-analysis of the deposited data

Results flagged for a closer look

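In 77 members with counts in the primed group, the highest or lowest of the 6 primed libraries was compared with the others by Dixon's test, which chance alone passes in about 1 group of 20 where values are normally distributed. It was passed by 13 of the 77 members, beside 13% of all genes over 3 counts in a primed library. Of the 13, 5 had all their primed counts in 1 library, which passes by construction, and 7 passed through Primed J3, the library of least depth. Primed J3 was highest for FUT8 (51.43 CPM), FUT11 (26.57 CPM), B4GALT7 (18.29 CPM), B3GALT4 (7 CPM), B3GNT3 (1.714 CPM), and GALNT5 (1.572 CPM), and lowest for GALNT4 (0 CPM). Primed J2 was highest for ST8SIA5 (1.619 CPM) and B4GALNT2 (0.4316 CPM), Primed K1 for GCNT3 (1.369 CPM) and B3GALT2 (0.7702 CPM), and Primed K3 for FUT5 (0.8866 CPM) and ST6GALNAC1 (0.7093 CPM).

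Another 20 members were called higher than primed in at least 1 protocol and lower in at least 1 other, beside 21.8% of all genes. For each, edgeR's quasi-likelihood test found a difference among the 7 protocols, as it did for 90.9% of all genes, and the choice of genes called in both directions favours such a difference. Of the initiating enzymes these were GALNT16 (adjusted p = 2.63e-24, higher in 5 and lower in 1), GALNT10 (1.81e-21, 5 and 1), GALNT2 (1.25e-20, 6 and 1), GALNT11 (3.09e-11, 1 and 3), GALNT6 (1.18e-10, 2 and 3), and GALNT1 (3.32e-10, 3 and 1). Of the N-glycan enzymes they were MGAT4B (1.4e-15, 1 and 4), MGAT2 (8.73e-12, 4 and 1), MGAT5B (6.06e-11, 1 and 3), and MGAT3 (2.99e-09, 2 and 1). For N-acetyllactosamine chains they were B3GNT2 (8.39e-17, 2 and 4), B4GALT1 (2.04e-15, 4 and 1), GCNT2 (6.81e-14, 1 and 5), B4GALT4 (4.82e-07, 1 and 1), and B3GALT1 (3.72e-06, 1 and 2). The others were B4GALNT3 (6.69e-12, 1 and 2), B4GALT5 (1.11e-11, 1 and 1), FUT1 (2.19e-09, 1 and 5), A4GALT (1.24e-08, 1 and 1), and ST3GAL4 (2.69e-05, 1 and 1). Every comparison with primed used the same 6 primed libraries, whereas the test among protocols used none of them.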

How the results depend on the processing

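Of the 256 calls of members against primed, 0 changed direction under any alternative, 199 were kept with each library left out in turn, and DESeq2 lost 2, upper-quartile scaling 4, no filter 6, 1 fit of all 8 groups 4, J libraries alone 34, and K libraries alone 10. With a minimum log2 fold change of 1, members higher fell to 3 in E-NHSM, 13 in TL-CDK8i, and 17 in TL-CDK8i against TL2i, and members lower to 4 in E-NHSM, 8 in TL2i, 3 in TL-CDK8i, and 7 in TL-CDK8i against TL2i. With 1 fit of all 8 groups, E-NHSM had 18 lower, TL-CDK8i 33 higher, and TL-CDK8i against TL2i 12 lower. With at least 10 counts in every library, NHSM-v had 7 lower and t2iLGöY 17 higher, from fewer genes tested. B4GALNT4 in 4i/L/b, not called (-0.06), was higher with K libraries alone (0.29, adjusted p = 0.0118). Leaving out 1 library gave 7 to 10 higher and 7 to 13 lower in E-NHSM, 24 to 30 and 12 to 15 in NHSM-v, 24 to 30 and 11 to 16 in 4i/L/b, 16 to 26 and 9 to 15 in TL2i, 22 to 27 and 13 to 17 in t2iLGöY, 21 to 29 and 18 to 23 in LCDM (EPS), and 17 to 25 and 6 to 10 in TL-CDK8i. It gave 71 to 74 different among protocols and 31 to 32 higher and 14 to 21 lower in TL-CDK8i against TL2i, the 14 without TL2i 2. The cause of these shifts was not tested.

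No paired analysis was possible for the comparisons with primed because the primed columns carry no replicate number that matches the labels. Same-numbered TL2i and TL-CDK8i libraries did not deviate together (correlations from -0.127 to -0.00855). With 1 pair for each number, this cannot tell whether they shared a culture or a preparation. With a replicate block, TL-CDK8i against TL2i kept 51 of 54 calls, and FUT10 (adjusted p = 0.0553), FUT8 (0.058), and ST6GALNAC6 (0.0538) passed the threshold no longer.

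Depth limits members with few counts: 7 were tested in none and 9 in some of the comparisons with primed. ST8SIA4, FUT9, and GALNT15 had no primed count, and B3GALT2 and FUT5 had all theirs in 1 primed library. These members passed the filter through the protocol libraries, which favours calls higher.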

Other observations

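FPGT, which salvages fucose to GDP-fucose, was counted almost only in TL-CDK8i, at 6.31, 9.36, and 9.57 CPM, and was at most 0.207 CPM in every other library. Against TL2i this gave a log2 fold change 7.43 ± 0.59, adjusted p = 1.47e-07 by edgeR's quasi-likelihood test. FPGT was singled out after its values were seen.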
